A study of Mus musculus with 10 samples.

Results

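Coagulation and fibrinolysis genes were followed in the kidneys of old mice that carried 1 active allele of Rragc. The set was named by gene symbol and holds 10 genes: the clotting cofactor F5, the clotting trigger F3, the thrombin receptor F2r, the anticoagulants Thbd, Procr and Tfpi, the plasminogen activators Plat and Plau, the urokinase receptor Plaur and the serpin Serpine2. Of the 13299 genes in the table, 7 were from this set, and all 7 passed the filter on low values; the counts of F3, Procr and Plaur were not analysed here. The genes were chosen on values of these same kidneys, namely the normalized counts of Rragc S74N/+ set against Rragc +/+, so fold changes and counts of the set are given as a description, without a p-value.

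Rragc encodes RagC, a GTPase that relays nutrient sufficiency to the growth kinase complex mTORC1, and the S74N substitution holds it in an active form. Kidneys of 5 Rragc S74N/+ and 5 Rragc +/+ mice, all 1.5 years old, were profiled by 3′ mRNA sequencing. In this method each transcript gives tags from its 3′ end only. The substitution had been knocked in with Cas9 together with silent changes next to it, and the allele sits in the germ line, so every cell type of the kidney and the blood cells within it carried it. No treatment was given in the labels, and sex was not stated there. Replicates are numbered in order of deposit and the numbers pair nothing. The labels do not say that samples came from separate litters or cultures, so the p-values measure the spread between these samples.

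Clotting proceeds through a cascade of proteases that ends in thrombin, which turns fibrinogen into fibrin. Factor V is the cofactor that speeds the formation of thrombin, and tissue factor pathway inhibitor and thrombomodulin hold the cascade back, the latter by turning thrombin towards activation of protein C. Fibrin is dissolved by plasmin, which tissue-type (Plat) and urokinase-type (Plau) plasminogen activators release from plasminogen. Plasma factor V is known mainly as a product of the liver, whereas urokinase is known to be made by kidney tubules and shed into the urine.

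Depth was 4488493 to 5797251 reads in the 8 libraries whose reads were recovered. The sum of normalized counts was 4473981 to 5087152 over all 10. Kidney identity genes (Kap, Umod, Slc34a1, Lrp2 and Aqp2) were present in all 10 libraries. Aqp2 varied widely, from 317 to 2145 normalized counts in Rragc +/+ and from 374 to 1594 in Rragc S74N/+ kidneys. The 4 Y-linked genes looked for were also detected in all 10. Rragc itself averaged 146 and 124 normalized counts in Rragc +/+ and Rragc S74N/+ kidneys (SD 42.7 and 26.4, n = 5 each), and its log2 difference of -0.22 ± 0.20 (SE) missed the threshold (limma adjusted p = 0.51). A 3′ tag does not tell the edited allele from the other. Rragc S74N/+ replicate 1 stood apart for Plat, Plau, Anxa2, Serpinf2 and Lcn2 and Rragc +/+ replicate 4 for F5. Values without them are given beside those genes. Rragc S74N/+ replicate 1 also stood apart from its genotype for several cell type markers, higher for Dcn, Dpt and Pecam1 and lower for Cubn and Slc22a6. Dcn was at 818 there and at 146 to 327 in the other Rragc S74N/+ kidneys, and Cubn at 248 beside 469 to 493.

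Sequence upstream of the start site is shown for 3 genes of the set: F5 and Serpine2, whose kidneys did not overlap between genotypes, with F5 lower and Serpine2 higher in Rragc S74N/+, and F2r, whose groups overlapped and whose window holds a motif searched for. RefSeq windows on GRCm38.p6, which run from 250 bases before the start to 50 after it, were found for 7 of the 10 genes. The 250 upstream bases of F5 (chr1:164151585-164151834, plus strand), F2r (chr13:95618467-95618716, minus strand) and Serpine2 (chr1:79858666-79858915, minus strand) read as follows, 5′ to 3′. Capitals mark the sequence TGANTCA, with any base at N, a loose form of the element that AP-1 factors bind.
F5 upstream: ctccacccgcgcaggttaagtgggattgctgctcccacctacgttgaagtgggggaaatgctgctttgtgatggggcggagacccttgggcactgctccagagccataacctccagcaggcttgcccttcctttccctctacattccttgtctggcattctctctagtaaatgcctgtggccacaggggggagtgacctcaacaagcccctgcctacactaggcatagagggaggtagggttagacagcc
F2r upstream: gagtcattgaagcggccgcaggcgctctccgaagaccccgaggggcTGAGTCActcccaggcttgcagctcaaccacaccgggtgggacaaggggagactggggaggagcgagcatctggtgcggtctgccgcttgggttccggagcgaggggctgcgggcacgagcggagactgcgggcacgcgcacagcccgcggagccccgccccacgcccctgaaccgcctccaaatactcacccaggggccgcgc
Serpine2 upstream: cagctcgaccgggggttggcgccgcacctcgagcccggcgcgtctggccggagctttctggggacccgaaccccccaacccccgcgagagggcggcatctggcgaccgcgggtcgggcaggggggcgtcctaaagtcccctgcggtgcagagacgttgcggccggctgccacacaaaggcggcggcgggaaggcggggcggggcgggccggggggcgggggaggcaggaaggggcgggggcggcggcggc

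The window of F5 had 57.7% G and C and 4 CpG dinucleotides, against 68.7% and 28 in F2r and 77.7% and 41 in Serpine2, and the median over all promoter windows was 52.7% G and C. Each window was searched on both strands for 5 motifs. They were an E-box core that TFEB and its relatives bind, the loose AP-1 sequence marked above, a kappa-B motif, an HNF1 half-site and a TATA motif. The loose AP-1 sequence was in 4 of the 7 genes with a window (F2r, F3, Plaur and Procr), and 7.81% of all 32851 windows held it. Motif counts are of genes, 7 with 8 windows since Tfpi has 2, while the shares are of windows. The E-box core, CACGTG, was in 1 gene, Tfpi, beside 7.15% of all windows. The second Tfpi window held none of the 5 motifs. In the first, the E-box core lay 17 bases after the start. The 30 bases around it (chr2:84476726-84476755, minus strand), with the motif in capitals, are given below.
Tfpi start region: tggccatctgcaCACGTGagtgataaagtc

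The TATA motif, TATAAA, was in F3 and Tfpi, beside 13.6% of all windows. Both were on the opposite strand, 44 bases after the start in F3 and 127 before it in the first Tfpi window. The kappa-B motif and the HNF1 half-site, GTTAAT, were in none of the 7 genes, beside 1.47% and 7.10% of all windows. The windows of F5 and Serpine2, the genes with the lowest and highest log2 differences of the set, held none of the 5 motifs.

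F5 was the gene of the set with the largest difference. Its normalized counts in Rragc +/+ kidneys were 113, 127, 93.1, 215 and 108, and in Rragc S74N/+ kidneys 3.73, 8.72, 8.998, 3.06 and 12.6. Every Rragc S74N/+ kidney was thus far below the lowest Rragc +/+ kidney. The means were 131 ± 48.2 (SD, n = 5) and 7.43 ± 4.0 (SD, n = 5), which is 17.7-fold lower and a log2 difference of -4.06 ± 0.34 (SE). In reads, the 4 recovered Rragc +/+ libraries held 97 to 246 tags of F5 and the 4 recovered Rragc S74N/+ libraries held 3 to 13, so the lower level rests on few tags. Without Rragc +/+ replicate 4, the highest kidney, the log2 difference was -3.86. F5 lay above 67.0% of genes in the table in Rragc +/+ kidneys and above 1.80% of them in Rragc S74N/+ kidneys. In bulk tissue, fewer cells that make a transcript and less of it per cell cannot be told apart.

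**Figure D1:**
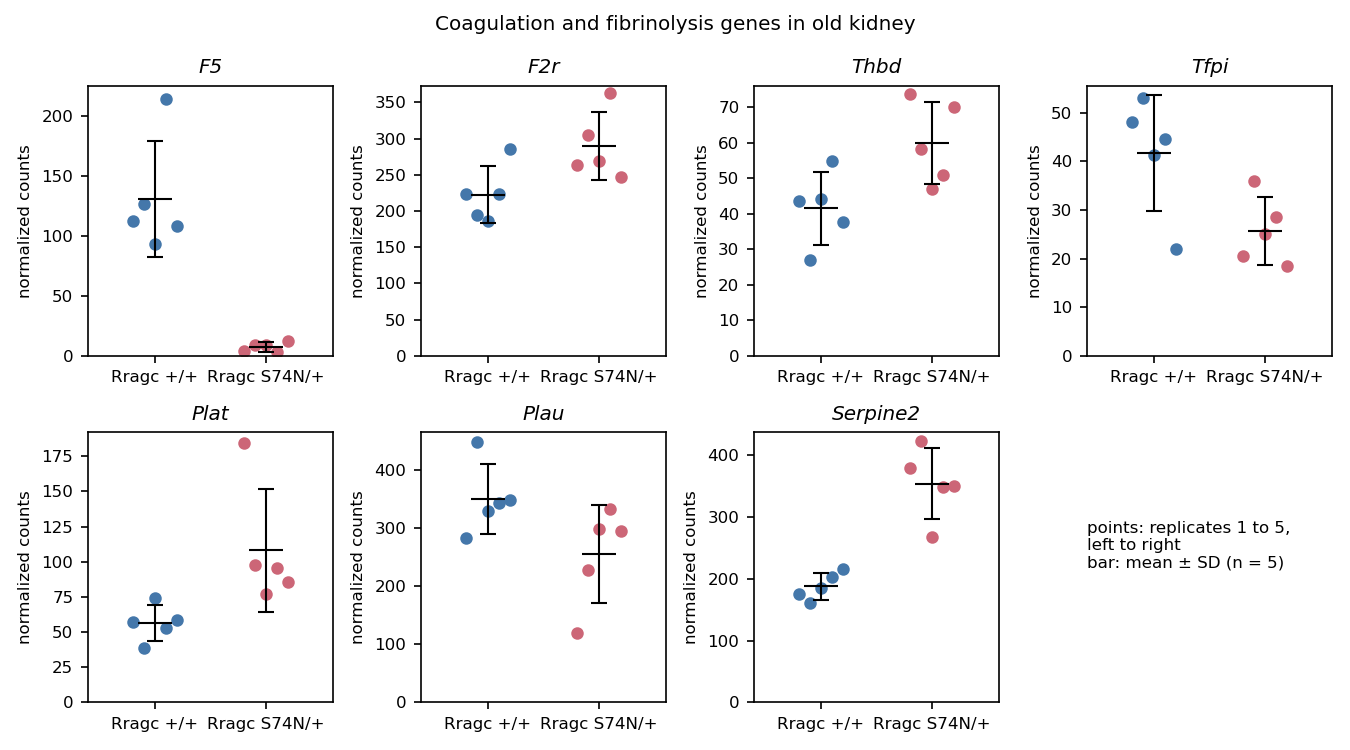
Normalized counts of the 7 measured genes of the set in each kidney (vertical axis, linear and starting at 0; 1 panel per gene) by genotype; points are single kidneys, and the line and bar give the mean and SD (n = 5). F5 averages 131 in Rragc +/+ and 7.43 in Rragc S74N/+ kidneys, Plat and Serpine2 are higher in all Rragc S74N/+ kidneys, and the groups overlap for F2r, Thbd, Tfpi and Plau.

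F2r encodes PAR1, the main receptor through which thrombin acts on cells. Its normalized counts were 224, 195, 186, 224 and 286 in Rragc +/+ kidneys and 263, 305, 269, 364 and 247 in Rragc S74N/+ kidneys. The groups overlapped through Rragc +/+ replicate 5. The means were 223 ± 39.0 (SD, n = 5) and 289.5 ± 46.6 (SD, n = 5), a log2 difference of 0.38 ± 0.14 (SE) that did not pass the threshold used over all genes.

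Both measured anticoagulants also overlapped between genotypes, and they differed in opposite directions. Thbd, thrombomodulin, was at 43.6, 27.0, 44.2, 55.02 and 37.8 normalized counts in Rragc +/+ and 73.7, 58.2, 47.0, 50.9 and 70.0 in Rragc S74N/+ kidneys, with a log2 difference of 0.53 ± 0.21 (SE). In 3 of the 5 Rragc S74N/+ kidneys Thbd was above every Rragc +/+ kidney. Tfpi, which blocks tissue factor with factor VIIa and Xa, was at 48.1, 53.1, 41.3, 44.5 and 21.9 normalized counts in Rragc +/+ and 20.5, 35.9, 25.0, 28.5 and 18.5 in Rragc S74N/+ kidneys. The overlap for Tfpi came from 1 kidney, Rragc +/+ replicate 5, at 21.9. Its log2 difference was -0.66 ± 0.27 (SE), and -0.87 without that kidney, when Tfpi passed the threshold. Neither gene passed it with all 10 kidneys.

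The plasminogen activators also went in opposite directions. Plat was at 57.1, 38.5, 73.9, 53.3 and 58.7 normalized counts in Rragc +/+ and 185, 97.9, 77.0, 95.7 and 85.5 in Rragc S74N/+ kidneys. All Rragc S74N/+ kidneys were above all Rragc +/+ kidneys, although the closest values were 73.9 and 77.0. The log2 difference was 0.89 ± 0.23 (SE), past the threshold, and it was 0.68 without Rragc S74N/+ replicate 1, the kidney at 185. Plat passed the threshold in 4 of the 10 fits that each left out 1 kidney. Plau, the most abundant gene of the set in Rragc +/+ kidneys, was at 282, 447, 329, 343 and 347 normalized counts there and at 119, 228, 298, 332 and 295 in Rragc S74N/+ kidneys. The means were 349.8 ± 60.4 (SD, n = 5) and 254 ± 84.5 (SD, n = 5), but 3 Rragc S74N/+ kidneys lay within the range of Rragc +/+. Its log2 difference of -0.53 ± 0.23 (SE) did not pass the threshold and was -0.28 without Rragc S74N/+ replicate 1, the lowest kidney.

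Serpine2, protease nexin-1, inhibits thrombin, urokinase and tissue-type plasminogen activator. It was at 175.6, 160.2, 185, 203 and 216 normalized counts in Rragc +/+ and 379.5, 424, 267, 348 and 351 in Rragc S74N/+ kidneys. The groups did not overlap, and in Rragc +/+ kidneys its coefficient of variation, 11.7%, was the smallest of the set. The means were 188 ± 21.9 (SD, n = 5) and 354 ± 57.3 (SD, n = 5), a 1.88-fold higher level and a log2 difference of 0.90 ± 0.14 (SE). Serpine2 passed the threshold in all 10 fits that each left out 1 kidney. Such fits, for Serpine2 and Plat alike, reuse the kidneys on which the set was chosen, so they are description only.

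3′ tags do not scale with transcript length, so levels are set side by side between genes. Capture and assignment of tags may still differ by gene, which was not tested. In Rragc +/+ kidneys Plau had the highest mean normalized count, followed by F2r, Serpine2, F5, Plat, Tfpi and Thbd. In Rragc S74N/+ kidneys the order was Serpine2, F2r, Plau, Plat, Thbd, Tfpi and F5. Among neighbours in these orders, F5 and Plat had separate ranges in Rragc +/+, and Plat and Thbd, Thbd and Tfpi, and Tfpi and F5 did in Rragc S74N/+. The ranges of all other neighbours overlapped, so their order is within the spread. F5 changed place most, from rank 4 to rank 7.

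**Figure D2:**
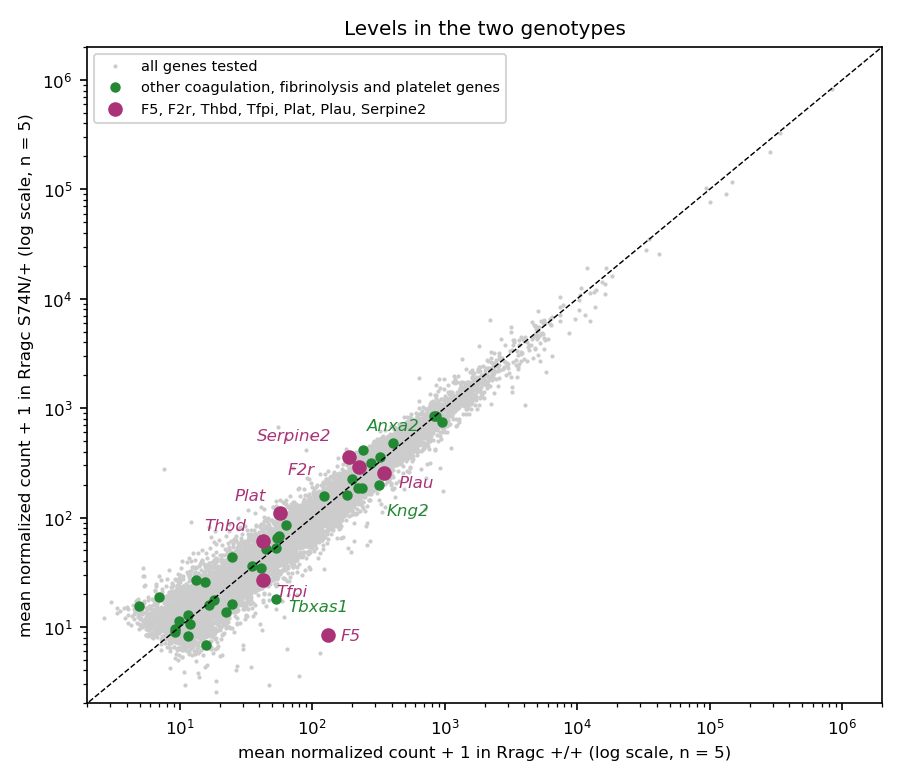
Mean normalized count plus 1 in Rragc +/+ (horizontal axis) and Rragc S74N/+ kidneys (vertical axis), both on log scales, n = 5 each; grey points are all genes tested, purple points the 7 genes of the set and green points the other pathway genes, and the dashed line marks equal levels. F5 lies far below the line, at 131 against 7.43, and Serpine2 and Plat lie above it.

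The balance between activators and inhibitor was taken within each kidney, where the scaling of the library cancels. Plau over Plat was 4.94, 11.6, 4.45, 6.44 and 5.92 in Rragc +/+ and 0.65, 2.33, 3.87, 3.47 and 3.45 in Rragc S74N/+ kidneys. The groups did not overlap, and Rragc S74N/+ replicate 1 was the only kidney with more Plat than Plau. Serpine2 over Plau ran from 0.36 to 0.62 in Rragc +/+ and from 0.90 to 3.18 in Rragc S74N/+ kidneys, without overlap. Serpine2 and Plat alone did not overlap either, and the set was chosen on these same kidneys. Nothing is therefore read from the separation of these ratios. Serpine2 over Plat overlapped, at 2.51 to 4.16 and 2.06 to 4.33, since both genes were higher in Rragc S74N/+. The sum of Plat and Plau overlapped as well, at 339 to 486 and 304 to 428 normalized counts.

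Across the set, 3 of the 7 measured genes passed the threshold in the limma fit over all genes (adjusted p under 0.05): Plat and Serpine2 higher and F5 lower in Rragc S74N/+. Of all 13236 genes tested, 6.03% passed, 3.45% as higher and 2.58% as lower. The same 3 genes had groups that did not overlap, beside 8.16% of all genes, 4.15% as higher and 4.01% as lower. Because the set was chosen with this comparison known, nothing is read from these counts. The median size of the log2 difference was 0.66 over the 7 genes and 0.26 over all genes tested. For the same reason, nothing is read from this gap. Sample titles carry numbers under or over 200, which the labels do not explain, with 3 and 2 kidneys of each genotype. Within these ranges the log2 differences were -3.85 and -4.37 for F5, 1.01 and 0.74 for Serpine2, and 1.02 and 0.68 for Plat. They were -0.78 and -0.14 for Plau, -0.81 and -0.43 for Tfpi, 0.64 and 0.38 for Thbd and 0.47 and 0.24 for F2r, so all 7 kept their direction. Of the 3 genes past the threshold with all kidneys, F5 alone passed in the range under 200. F5 and Serpine2 passed in the range over 200. The ranges split the same kidneys on which the set was chosen, so nothing is read from these fits.

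**Figure D3:**
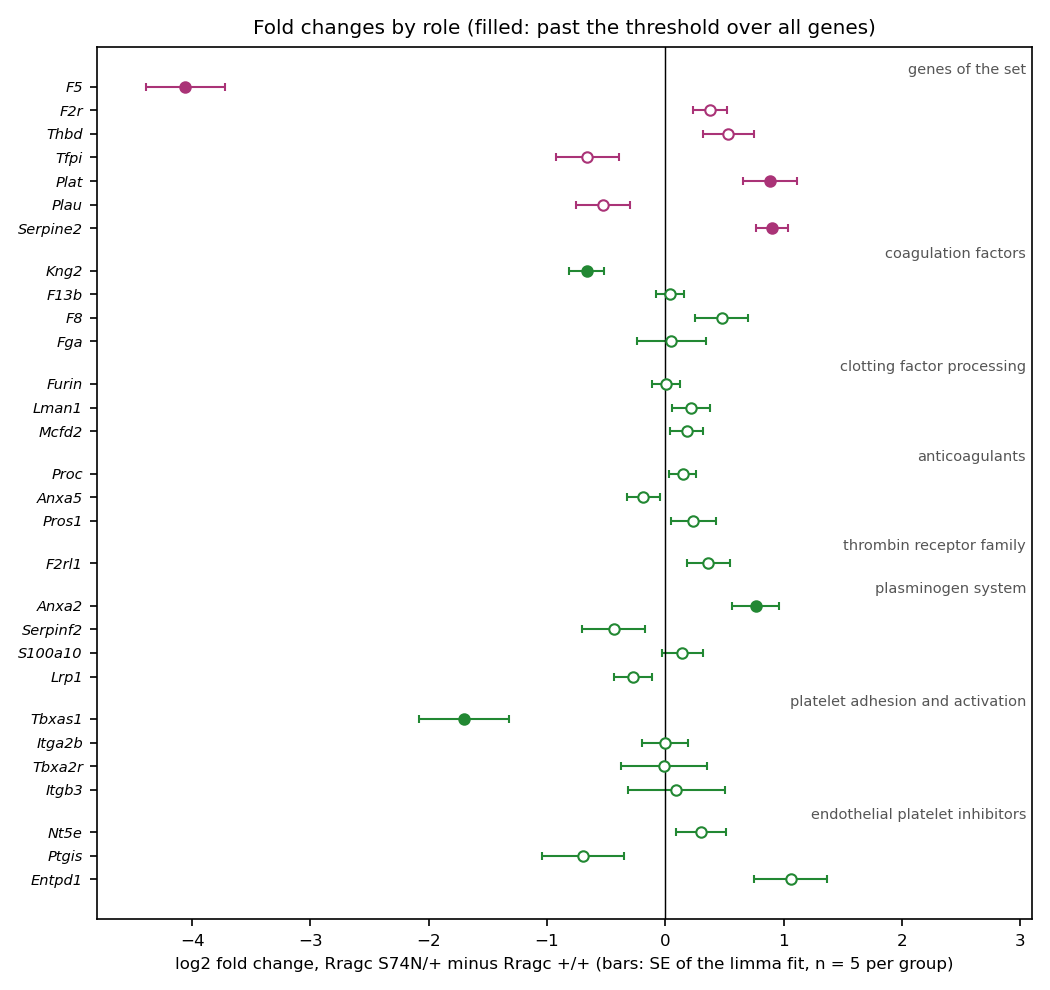
Log2 difference, Rragc S74N/+ minus Rragc +/+, with its SE from the limma fit (n = 5 per genotype), for the 7 genes of the set and the named genes of the 7 pathway lists; filled points passed the threshold over all genes and the vertical line marks no difference. F5 is at -4.06, while the other 6 genes of the set lie between -0.66 and 0.90.

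The rest of the system was described with 7 lists of 62 other genes, of which 38 were tested and 24 were not analysed here. Of the 38, 3 passed the threshold, 1 higher and 2 lower, or 7.89% beside 6.03% of all genes, and the median log2 difference was 0.05. At an unadjusted p under 0.05 there were 9. The share of all genes at that level is not given, so nothing is read from this count. The other 35 did not pass.

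Among 9 tested coagulation factors, 1 fell. Kng2, a kininogen of the contact pathway, was at 274 to 404 normalized counts in Rragc +/+ and 155 to 244 in Rragc S74N/+ kidneys, without overlap, and fell by 0.66 ± 0.15 on the log2 scale (limma adjusted p = 0.017). Its close paralog Kng1 shares sequence with it, so the assignment of reads between them is uncertain. The call was lost without Rragc +/+ replicate 1 or 4 (limma adjusted p = 0.051 each). None of the other 8 passed. F13b, the carrier subunit of the fibrin cross-linking factor XIII, was at 832 ± 99.7 and 854 ± 91.2 normalized counts (SD, n = 5 each; limma adjusted p = 0.87). F8, the cofactor that is homologous to factor V, had a log2 difference of 0.48 ± 0.23 (limma adjusted p = 0.20). Fga, a fibrinogen chain, had one of 0.05 ± 0.29 (limma adjusted p = 0.94).

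None of 6 tested genes of clotting factor processing passed. Lman1 and Mcfd2 form the receptor that carries factors V and VIII out of the endoplasmic reticulum, and their log2 differences were 0.22 ± 0.16 (limma adjusted p = 0.42) and 0.18 ± 0.14 (limma adjusted p = 0.44). Furin, a protease that trims precursor proteins, was at 857 ± 137 and 855 ± 68.1 normalized counts (SD, n = 5 each).

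None of 7 other anticoagulants passed. Proc, protein C, which inactivates factor Va once activated, was at 325 ± 38.8 and 358 ± 31.5 normalized counts (SD, n = 5 each; limma adjusted p = 0.46). Its cofactor Pros1 had a log2 difference of 0.24 ± 0.19 (limma adjusted p = 0.46) and Anxa5, which covers phospholipid surfaces, one of -0.18 ± 0.14 (limma adjusted p = 0.44). The thrombin receptor family had 1 tested gene besides F2r, F2rl1 (PAR2), at 0.36 ± 0.18 (limma adjusted p = 0.23).

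In the plasminogen system 1 of 7 tested genes rose. Anxa2, a cell surface docking protein for plasminogen and Plat, was at 199, 204, 335, 213 and 243 normalized counts in Rragc +/+ and 691, 391, 322, 342 and 338 in Rragc S74N/+ kidneys. The groups overlapped through Rragc +/+ replicate 3, and the log2 difference was 0.76 ± 0.20 (limma adjusted p = 0.034). It was 0.57 without Rragc S74N/+ replicate 1, the kidney at 691 (limma adjusted p = 0.021), and the call was lost in 6 of the 10 fits without 1 kidney, with adjusted p up to 0.098. S100a10, the partner of Anxa2, had a log2 difference of 0.15 ± 0.17 (limma adjusted p = 0.64). Serpinf2, the plasmin inhibitor, was at 949 ± 240.4 and 738 ± 264 normalized counts (SD, n = 5 each; limma adjusted p = 0.32). Its log2 difference was -0.44, and -0.13 without Rragc S74N/+ replicate 1, the lowest kidney. Lrp1, the receptor that clears activator and inhibitor complexes, was at 219 ± 27.4 and 184 ± 41.1 (SD, n = 5 each; limma adjusted p = 0.29).

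Of 4 tested genes of platelet adhesion and activation, 1 fell. Tbxas1, thromboxane synthase, which platelets and macrophages express, was at 81.7, 49.9, 34.6, 51.5 and 43.8 normalized counts in Rragc +/+ and 22.4, 15.5, 19.996, 4.07 and 22.3 in Rragc S74N/+ kidneys. It fell by 1.70 ± 0.38 on the log2 scale (limma adjusted p = 0.018), a call lost without Rragc +/+ replicate 1 (limma adjusted p = 0.058). The platelet integrin chains Itga2b and Itgb3 and the thromboxane receptor Tbxa2r had log2 differences of 0.00, 0.09 and -0.01, with limma adjusted p of at least 0.91. None of the 4 endothelial platelet inhibitors passed. Entpd1 (CD39), which breaks down extracellular ATP and ADP, was at 12.3 ± 4.72 and 25.8 ± 5.68 normalized counts (SD, n = 5 each) without overlap, at limma adjusted p = 0.054. It passed under 4 alternatives, with adjusted p from 0.030 to 0.048. Nt5e (CD73) had a log2 difference of 0.30 ± 0.21 (limma adjusted p = 0.39). Leaving out Rragc S74N/+ replicate 1 gave 0.53 for Nt5e, which passed (limma adjusted p = 0.020). Ptgis, prostacyclin synthase, had one of -0.70 ± 0.35 (limma adjusted p = 0.22).

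The genes whose levels over the 10 kidneys were most like those of F5, by Pearson correlation of log2 values, were Slc5a2, Clec2h, Ccnd1, Fgd1 and Fabp3, with r from 0.96 to 0.98. Both genotypes enter this measure, so a shared difference between genotypes raises it. With the mean of each genotype removed, r was 0.90 for Slc5a2, 0.80 for Clec2h, 0.55 for Ccnd1, 0.68 for Fgd1 and 0.37 for Fabp3. Slc5a2, the glucose carrier SGLT2 of the early proximal tubule, was at 791, 906, 810.2, 881 and 835 normalized counts in Rragc +/+ and 331, 458.5, 435, 319.8 and 532 in Rragc S74N/+ kidneys. Rragc S74N/+ replicate 5 was the highest and replicate 4 the lowest of its genotype for both genes, with few tags of F5 there. In Rragc +/+ kidneys the extremes differed. F5 was highest in replicate 4 and lowest in replicate 3, and Slc5a2 was highest in replicate 2 and lowest in replicate 1. With genotype means removed, Slc5a2 ranked 3 for likeness to F5. All 5 genes are lower in Rragc S74N/+ kidneys.

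**Figure D4:**
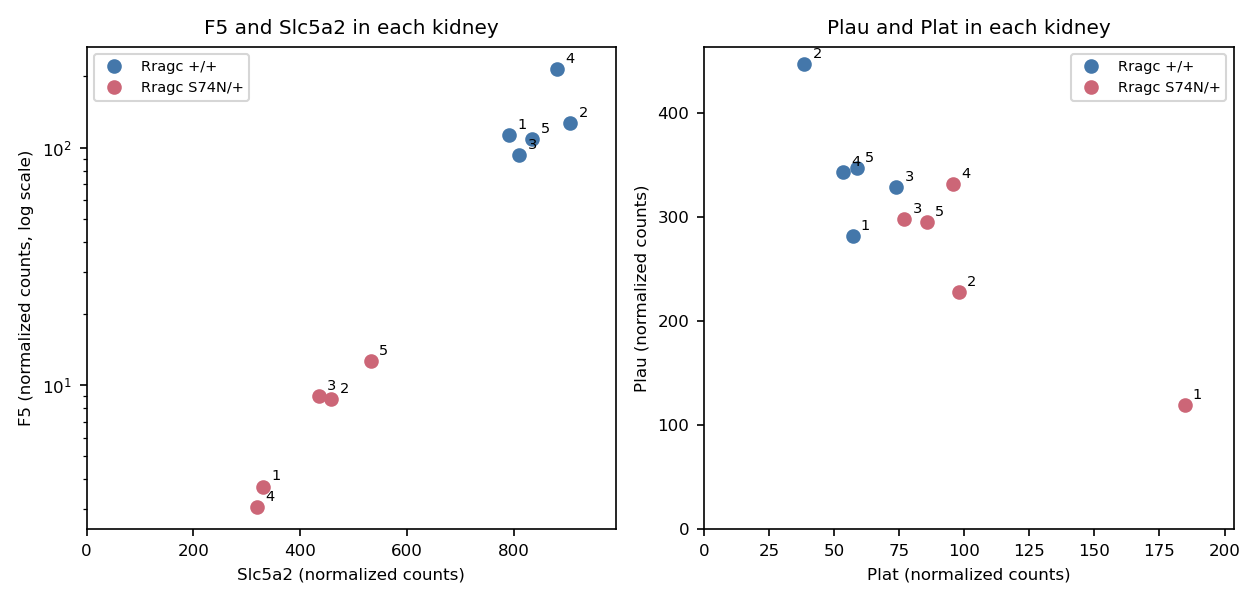
Normalized counts of 2 genes in each kidney: F5 (vertical, log scale) against Slc5a2 (horizontal, linear) on the left, and Plau (vertical) against Plat (horizontal), both linear, on the right; points are single kidneys with their replicate number, coloured by genotype (n = 5 each). F5 and Slc5a2 are both lower in every Rragc S74N/+ kidney, and Plau over Plat is 4.45 or more in every Rragc +/+ kidney and 3.87 or less in every Rragc S74N/+ kidney.

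Marker lists of cell types were summed in each kidney and set beside these values. Abundant genes weigh most in a sum. Means in Rragc +/+ kidneys were 18242 for Slc34a1 (proximal tubule), 1826 for Clu (injured tubule) and 294 for Ttr (hepatocyte). The proximal tubule list (10 of 10 genes tested) ran from 27773 to 35466 normalized counts in Rragc +/+ and from 27346 to 35401 in Rragc S74N/+ kidneys, and Slc5a2 was the 1 gene that fell. The hepatocyte list (5 of 6 tested) overlapped at 296 to 641 and 558 to 797, with none past the threshold. Log2 differences of its genes ran from -0.71 to 0.67, and the defining gene Alb was at 25.9 ± 14.5 and 25.6 ± 9.39 normalized counts (SD, n = 5 each). The part of hepatocyte and platelet RNA in the lower F5 was not tested. The platelet list (3 of 6 tested), another known source of factor V, overlapped at 78.7 to 85.0 and 69.9 to 101, with none past the threshold. The distal convoluted tubule list (Slc12a3, Pvalb, Trpm6 and Wnk1) did not overlap, at 5421 to 6307 and 2014 to 2897, and all 4 genes fell; its part in the lower F5 was not tested. In the thick ascending limb list Umod and Egf fell, and the sums overlapped. The other 2 genes of that list, Slc12a1 and Cldn16, had log2 differences of 0.04 and 0.44 and did not pass.

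The endothelial list (12 of 12 tested) was set beside Thbd, Tfpi and Plat, which endothelium expresses. Its sums overlapped, at 2722 to 3096 and 2591 to 3328 normalized counts, and 1 gene, Plvap, fell. Kdr did not pass (limma adjusted p = 0.051), but its groups did not overlap, at 421 to 548 in Rragc +/+ and 236 to 397 in Rragc S74N/+. Of the 12 genes, 7 had a log2 difference above 0. The fibroblast list (8 of 8 tested) ran from 816 to 1472 in Rragc +/+ and from 1337 to 2437 in Rragc S74N/+ kidneys. Its genes Pdgfra, Col1a1 and Col1a2 were higher. The highest endothelial and the highest fibroblast sum were both those of Rragc S74N/+ replicate 1. The macrophage list (9 of 10 tested) did not overlap, at 594 to 770 and 897 to 1229, with C1qb and Lyz2 higher. Of its 9 tested genes, 7 had a log2 difference above 0. C1qc was at -0.48 and Cd68 at -0.34, neither past the threshold. The neutrophil list (2 of 7 tested) did not overlap either, at 11.4 to 26.8 and 32.0 to 71.3, with S100a9 higher. The injured tubule list (7 of 8 tested) overlapped in its sum, although Havcr1, Lcn2 and Vcam1 rose. In the podocyte list Synpo rose, and in the collecting duct list Slc26a4 rose and Slc4a1 fell. The log2 difference of Lcn2 was 2.15, and 1.49 without Rragc S74N/+ replicate 1. The calls of S100a9, Pdgfra, Col1a2, Havcr1, Lcn2, Vcam1, Slc26a4 and Synpo held in 2 to 9 of the 10 fits that each left out 1 kidney, and those of the other marker genes in all 10. Pvalb and Havcr1 were the only marker genes listed at 0 in a library, each in 1. The part of these cell types in the higher Plat, Serpine2 and Anxa2 was not tested.

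**Figure D5:**
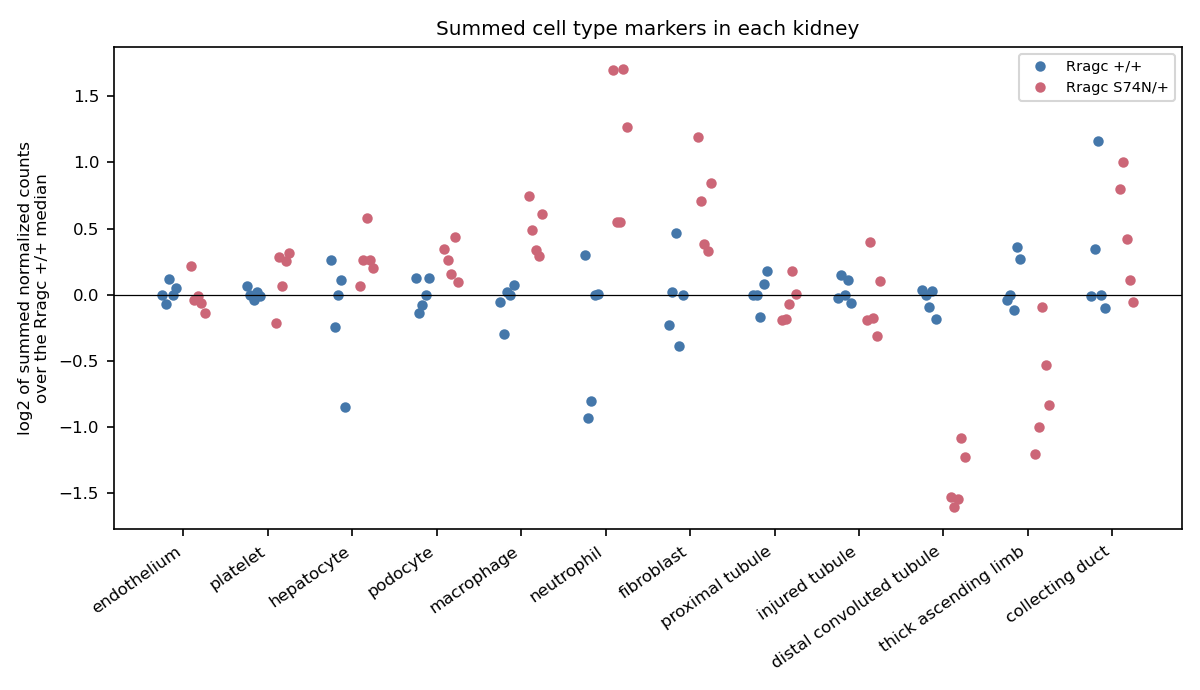
Log2 of the summed normalized counts of each marker list over its median in Rragc +/+ (vertical axis), in single kidneys coloured by genotype (n = 5 each), with the cell types along the horizontal axis. The distal convoluted tubule sums are lower and the macrophage and neutrophil sums higher in every Rragc S74N/+ kidney than in any Rragc +/+ kidney, and the sums of all other lists overlap.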

How the data were processed

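Kidney RNA of 10 mice was sequenced from the 3′ end with the QuantSeq FWD kit (300 ng, RNA quality scores 6.2 to 7). The authors checked reads with FastQC 0.11.7, aligned them with TopHat2 (Bowtie, SAMtools; build GRCm39) and obtained gene counts from HTSeq 0.6.1. The deposited signal values are counts that the authors divided by a size factor per sample. Whole reads were recovered in 8 columns (100% of values whole within 0.01). Rragc +/+ replicate 5 and Rragc S74N/+ replicate 3 were left out by choice, because their steps are close to 1, and entered no count model. Their values were also 100% whole within 0.01.

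Genes with at least 5 normalized counts in at least 5 samples (13236, with 63 removed) were fitted on log2(normalized count + 1) with limma 3.58.1 in R 4.3.3 (genotype only, eBayes with trend), two-sided, with Benjamini-Hochberg adjustment over all genes and a threshold of 0.05. This scale understates changes of low genes. The code was tested on simulated data. edgeR 4.0.16 and DESeq2 1.42.0 on the 8 recovered libraries were alternatives; limma on those 8, and fits without 1 kidney for the marker genes, were added after the data were seen. RefSeq promoter windows are on GRCm38.p6, another build than the counts.

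The genes of the set, the lists and the tests were chosen with earlier results of these data known. Named are the genes of the set, Rragc, pathway genes past the threshold and the 3 others with the highest mean in each list, the 5 genes most like F5, and markers past the threshold or at 0. A few other markers are named beside them.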

Additional observations from a re-analysis of the deposited data

Results flagged for a closer look

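In 6 of 88 groups of 5 values, 1 kidney lay farther from the others than Dixon's critical value of 0.71 for the gap over the range allows; chance gives about 4.4. F5 in Rragc +/+ replicate 4 was at 214.8 normalized counts, beside 93.1 to 127 in the other 4. Plat in Rragc S74N/+ replicate 1 was at 185, beside 77.0 to 97.9, and Anxa2 in the same kidney was at 691, beside 322 to 391. Lrp1 in Rragc +/+ replicate 2 was at 172, beside 225 to 239. Plau over Plat in Rragc +/+ replicate 2 was 11.6, beside 4.45 to 6.44. The sum of collecting duct markers in Rragc +/+ replicate 3 was 3180.3 normalized counts, beside 1326 to 1799.7. The causes were not tested.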

How the results depend on the processing

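No paired analysis was possible because the labels carry no replicate numbers. All 7 genes of the set kept their direction under every alternative that gave a value. Every alternative reuses the kidneys on which the set was chosen, so nothing is read from this about the set. Genes past the threshold numbered 798 (457 higher, 341 lower), 391 by eBayes without trend, 1402 by DESeq2 on 8 samples, 46 and 617 in the title ranges under and over 200, and 311 to 902 with each replicate left out. Leaving out Rragc +/+ replicates 1, 2 and 4 or Rragc S74N/+ replicate 5 gave 368, 311, 383 and 371. Scaling to equal totals gave 943 (718 higher, 225 lower) and moved the median log2 difference of all genes from -0.01 to 0.06. In the set, 3 genes passed, 5 by DESeq2 (F2r and Tfpi in addition), 1 in the title range under 200 and 2 to 4 with each replicate left out; Plat was lost by eBayes without trend. Of the other pathway genes 3 passed, 5 with a pseudocount of 5, 5 at equal totals, 6 by DESeq2, 0 by eBayes without trend, 0 and 5 in the title ranges under and over 200, and 0 to 4 with each replicate left out (0 without Rragc +/+ replicate 1 and 1 without replicate 4); in each of the 3 fits with 0, 8 had an unadjusted p under 0.05. The share of all genes at that unadjusted p is not given, so nothing is read from the 8. The 5 genes most like F5 shared 1 with those by Spearman rho and 1 with those after removing genotype means. Within-range fits hold 3 or 2 kidneys per genotype. F5 in Rragc S74N/+ rests on 3 to 13 tags per recovered library.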

Other observations

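3 low-level genes of the pathway lists, chosen after their values were seen, are given as values, and nothing is read from their adjusted p. All 3 had a higher mean in Rragc S74N/+, but the lists held both directions. Log2 differences ran from -1.14 to 1.77 among the anticoagulants, with 4 of 7 above 0. Among coagulation factors they ran from -0.71 to 0.84 (5 of 9 above 0), and in the plasminogen system from -0.52 to 1.67 (4 of 7 above 0). Serpini1, neuroserpin, an inhibitor of tissue-type plasminogen activator, was at 5.98 ± 4.65 normalized counts in Rragc +/+ and 17.7 ± 5.15 in Rragc S74N/+ kidneys (SD, n = 5 each; limma adjusted p = 0.053). Serpina10, the protein Z-dependent inhibitor of factor Xa, was at 3.93 ± 3.40 and 14.5 ± 9.01 (SD, n = 5 each; limma adjusted p = 0.10). Vwf, von Willebrand factor, was at 14.5 ± 13.6 and 24.6 ± 19.4 (SD, n = 5 each; limma adjusted p = 0.35), with the highest value, 57.8, in Rragc S74N/+ replicate 1.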
